A study of Mus musculus with 6 samples.

Results

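Pre-mRNA splicing depends on 3 large groups of proteins whose genes were examined in activated mouse CD8+ T cells: the hnRNP proteins, the SR proteins and the subunits of splicing factor SF3. The members were all listed genes whose symbol begins with Hnrnp, with Srsf and a digit, or with Sf3a or Sf3b and a digit. This rule uses names only and found 40 of the 11175 listed genes, of which 20 are hnRNP, 11 SR and 9 SF3 genes. All 40 had a mean of at least 1 FPKM (mapped fragments scaled to transcript length and library total) over the libraries and were tested among 10887 genes. CD8+ T cells from the spleen of wild-type mice were activated in culture through CD3 and CD28 for 48 h, either without further treatment (control, 3 libraries) or with DOPAC (3,4-dihydroxyphenylacetic acid, a catechol formed from dopamine, 3 libraries). The labels give neither a dose nor the age of the mice, and they do not say whether replicates were separate animals or cultures. A p-value here therefore reflects no more than library-to-library spread, possibly of technical origin. FPKM keep no read counts, so the depth of the libraries is unknown.

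As background, hnRNP proteins coat nascent transcripts and often favour the skipping of exons, whereas SR proteins bind enhancer sequences in exons and recruit the splicing machinery. The SF3A and SF3B complexes are parts of the U2 small nuclear ribonucleoprotein, which holds the branch point of the intron. In T cells, hnRNP LL is known to drive the switch of the CD45 gene Ptprc to shorter isoforms after activation. Many SR and hnRNP genes limit their own expression through transcripts that are degraded by nonsense-mediated decay.

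Hnrnpa3 was the member that differed most between the groups, and it was set against its nearest relatives. Its coding sequence shared 73.0% of aligned bases with Hnrnpa1, 69.0% with Hnrnpa2b1 and 54.6% with Hnrnpa0. The relatives differ from Hnrnpa3 at many bases, whereas annotated copies of Hnrnpa3 elsewhere in the genome can be identical to it over long stretches. Both are shown by a stretch of 60 bases from the Hnrnpa3 coding sequence (coding bases 184 to 243, counted from the start codon), beside the aligned stretches of Hnrnpa1 (121 to 180), Hnrnpa2b1 (142 to 201) and Hnrnpa0 (100 to 159), and the matching stretches of 2 copies, Gm5641 and Gm11847. Sequences are from GENCODE M21 transcripts on GRCm38, the build also called mm10, 5′ to 3′, and capitals mark bases that differ from Hnrnpa3.
Hnrnpa3: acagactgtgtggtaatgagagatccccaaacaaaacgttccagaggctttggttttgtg
Hnrnpa1: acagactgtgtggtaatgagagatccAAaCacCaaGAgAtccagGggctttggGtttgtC
Hnrnpa2b1: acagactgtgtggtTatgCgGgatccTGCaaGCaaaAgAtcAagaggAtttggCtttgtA
Hnrnpa0: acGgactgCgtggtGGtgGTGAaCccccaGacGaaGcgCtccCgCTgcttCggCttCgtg
Gm5641: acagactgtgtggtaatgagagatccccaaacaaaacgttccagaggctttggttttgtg
Gm11847: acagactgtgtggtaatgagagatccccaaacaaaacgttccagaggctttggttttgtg
Hnrnpa1 differed from Hnrnpa3 at 10 of these bases, Hnrnpa2b1 at 14 and Hnrnpa0 at 19. Both copies differed at 0. The stretch was chosen as the one of its length, without gaps, where Hnrnpa3 and the relatives share the most bases. The relatives thus differ less here than over the whole aligned sequence.

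Of the 40 genes, 24 had a higher and 16 a lower mean with DOPAC on the log2(FPKM + 1) scale, where 62.1% of all genes were higher. No member passed the adjusted threshold of 0.05 in the limma fit over all 10887 genes (lowest adjusted p = 0.801), and the background was 0% (0 genes called). At an unadjusted p under 0.05, 0 members were higher, against a background of 2.73%, and 2 were lower (Hnrnpa3 and Sf3a2), against a background of 1.46% (4.19% in both directions together). The libraries of the groups did not overlap for 6 genes that were higher with DOPAC (Hnrnpa1, Hnrnpf, Hnrnph2, Hnrnpk, Hnrnpm and Sf3b1), where 12.4% of all genes did the same. They did not overlap for 3 genes that were lower (Hnrnpa3, Hnrnpd and Sf3a2), where 4.8% of all genes did the same, and 17.2% of all genes did not overlap in either direction. After quantile normalization this split was 2 higher and 5 lower, and with equal library medians it was 6 and 6. The shares over all genes were not counted under these scalings, so 12.4% and 4.8% are no background for them. The median log2 fold change was 0.06 over the members and 0.07 over all genes tested.

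The medians of the protein families lay near 0. The median log2 fold change was 0.14 over the 20 hnRNP genes, of which 15 were positive. It was 0.03 over the 11 SR genes, of which 6 were positive, and -0.03 with equal library medians. It was -0.04 over the 9 SF3 genes, of which 3 were positive. 1 library bears on all of these values: control replicate 1 correlated with the other libraries at r of 0.899 to 0.917, against 0.974 to 0.992 among the other 5, over all genes tested. Control replicate 1 was the lowest of the 6 libraries for 24 of the 40 members (60%), as for 58.6% of all genes tested. Without it, 19 members were positive and 21 negative (47.3% of all genes were positive), and the medians were 0.05 for hnRNP, -0.06 for SR and -0.11 for SF3 genes, against -0.01 for all genes. At an unadjusted p under 0.05, 0 members were then higher (background 5.57%) and 8 were lower (background 8.89%), and 0 passed the adjusted threshold (lowest adjusted p = 0.295, limma, background 0.0184%). The 8 were Hnrnpa3, Hnrnpd, Sf3a1, Sf3a2, Sf3b2, Sf3b4, Srsf6 and Srsf9.

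**Figure D1:**
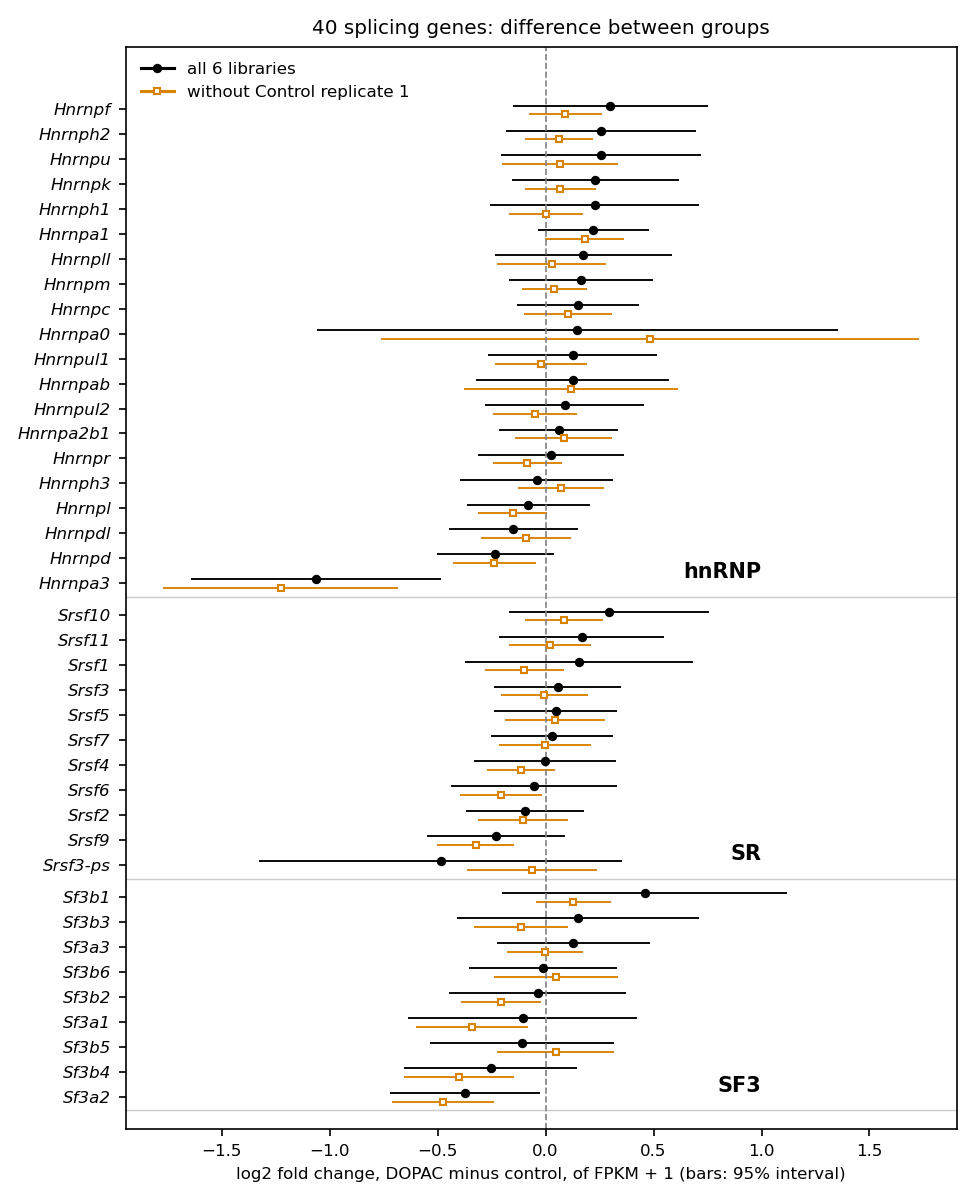
Log2 fold change (DOPAC minus control, on log2(FPKM + 1)) of the 40 genes, ordered within each family, with 95% intervals of the limma fit over all 6 libraries (black) and without control replicate 1 (orange). Hnrnpa3 lies farthest from 0 in both fits, and most positive hnRNP values lie nearer to 0 without control replicate 1.

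Hnrnpa3 encodes a nuclear RNA-binding protein of the hnRNP A/B group, at chr2:75659261-75669407 (plus strand, GRCm38). It was listed at 21.4, 31.4 and 29.6 FPKM in control replicates 1, 2 and 3, and at 17.2, 9.59 and 11.6 FPKM in DOPAC replicates 1, 2 and 3. Every DOPAC library was below every control library, and the nearest values belonged to replicate 1 of each group. The mean was 27.4 ± 5.29 FPKM (SD, n = 3) in controls and 12.8 ± 3.94 FPKM (SD, n = 3) with DOPAC. The log2 fold change was -1.07 (95% interval -1.64 to -0.49), with an unadjusted p of 0.0035 in the limma fit over all genes, and it did not pass the adjusted threshold (adjusted p = 0.801). The gene ranked 36 by p of 10887 genes, and 49 of the 6831 genes with a mean of at least 5 FPKM had a lower fold change. The authors' deposited table gives Hnrnpa3 the same log2 fold change, -1.07, with an adjusted p of 0.801.

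Its relatives were listed at higher or similar levels, with fold changes near 0. Hnrnpa1, which moves between nucleus and cytoplasm and represses many exons, was the most abundant member, at 418, 448 and 459.6 FPKM in controls and 542, 499 and 505 with DOPAC. Every DOPAC library was above every control library, with a log2 fold change of 0.22 (95% interval -0.03 to 0.48, adjusted p = 0.801, limma). Hnrnpa2b1, whose products take part in splicing and RNA transport, was at 241, 215 and 246 FPKM in controls and 259, 239 and 234 with DOPAC. Its groups overlapped, and its log2 fold change of 0.06 had a 95% interval of -0.22 to 0.34. Hnrnpa0, an intronless relative that binds AU-rich RNA, was at 61.5, 29.7 and 30.4 FPKM in controls and 91.7, 28.1 and 29.2 with DOPAC. Replicate 1 stood above the others in both groups, and the log2 fold change of 0.15 had a 95% interval of -1.06 to 1.35. Without DOPAC replicate 1 it was -0.40.

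Within each library, log2(FPKM + 1) of Hnrnpa3 minus that of a relative gives a ratio that is nearly free of library scaling. Against Hnrnpa1 this difference was -4.22, -3.80 and -3.91 in controls and -4.90, -5.56 and -5.33 with DOPAC, and the groups did not overlap. The mean difference between groups was -1.29 (exact two-sided permutation p = 0.1, adjusted over the 3 relatives 0.15). Against Hnrnpa2b1 it was -3.06 ± 0.35 (SD, n = 3) in controls and -4.19 ± 0.33 (SD, n = 3) with DOPAC, a difference of -1.13 (exact two-sided permutation p = 0.1, adjusted 0.15). Against Hnrnpa0 the groups overlapped, at -0.48 ± 0.87 (SD, n = 3) and -1.69 ± 0.58 (SD, n = 3), a difference of -1.21 (exact two-sided permutation p = 0.3, adjusted 0.3). With 3 against 3 libraries the smallest p this test can give is 0.1. Hnrnpa3 was singled out with its values known, so these ratios describe it.

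**Figure D2:**
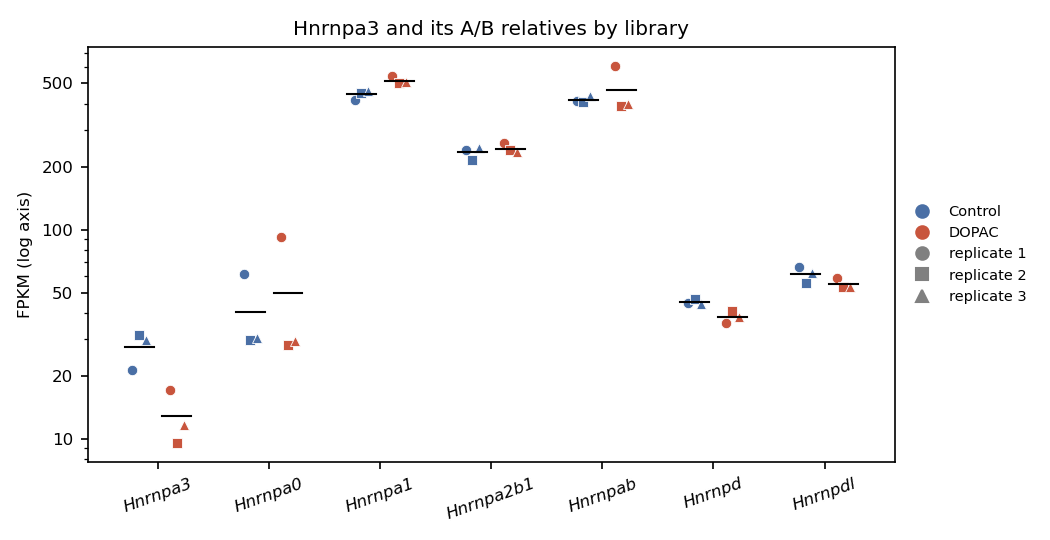
FPKM (log axis) of Hnrnpa3 and 6 members with related sequence, by library, where blue is control, red is DOPAC, the shape gives the replicate number and the bar is the group mean. Hnrnpa3 is lower in every DOPAC library, and replicate 1 stands apart for Hnrnpa0 in both groups and for Hnrnpab with DOPAC.

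Reads of Hnrnpa3 can match other places in the genome. Of its 5573 distinct stretches of 75 bases, 26.1% also occur in annotated transcripts of 39 other genes, on either strand. The stretch of 75 bases and the limit of 100 shared stretches that defines a copy were chosen after the data had been seen. By this limit 20 copies are annotated outside the Hnrnpa3 locus, of which 16 are listed in the table. In the coding stretch printed above, 12 of the 16 have 0 differences from Hnrnpa3. Such sharing is not limited to Hnrnpa3 among the members: 27.04% of the stretches of Hnrnpa1, 38.6% of those of Sf3b4 and 55.95% of those of Hnrnpf also occur in other genes. Hnrnpa2b1 and Hnrnpa0 share 0 such stretches with any other gene.

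Of the 16 copies, 10 had a higher and 6 a lower mean FPKM than Hnrnpa3, over all 6 libraries. Gm5641 (chr3:54481438-54482925) was at 263, 263 and 283 FPKM in controls and 383, 301 and 279 with DOPAC. Gm11847 (chr4:12232833-12233951) was at 244, 242 and 232 FPKM in controls and 373, 224 and 238 with DOPAC. Both were highest in DOPAC replicate 1, and their groups overlapped. The 16 copies together summed to 1096 ± 191 FPKM (SD, n = 3) in controls and 1150 ± 208 FPKM (SD, n = 3) with DOPAC. Of the 16, 7 had a positive and 9 a negative log2 fold change (62.1% of all genes were positive). At an unadjusted p under 0.05 in the limma fit, 0 were called (background 4.19% in both directions together). Without control replicate 1, 15 were positive and 1 negative (47.3% of all genes were positive). Then 1 copy, Gm12960, was higher at an unadjusted p under 0.05 (log2 fold change 0.31, adjusted p = 0.320, limma, background 5.57%). The copies share sequence and can draw on the same reads, so the 16 are not independent of each other.

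FPKM times summed exon length in kilobases is in proportion to the fragments given to a gene within a library, as far as the authors' gene lengths equal the GENCODE lengths used here. On this scale Hnrnpa3 and its copies together reached 1697, 1352 and 1399 in controls and 1796, 1349 and 1301 with DOPAC. The totals overlapped, with replicate 1 highest in each group. The means were 1483 ± 187 (SD, n = 3) in controls and 1482 ± 273 (SD, n = 3) with DOPAC. Hnrnpa3 itself went from a mean of 148 to 69.0 on this scale, and made up 9.99% of the control total and 4.65% of the DOPAC total. That difference is smaller than the SD of the totals, so the totals cannot show whether Hnrnpa3 itself differed. How the authors' counting shared reads between Hnrnpa3 and its copies is not given in the sources used here, so the Hnrnpa3 value is uncertain, and the part of read sharing in the difference was not tested.

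**Figure D3:**
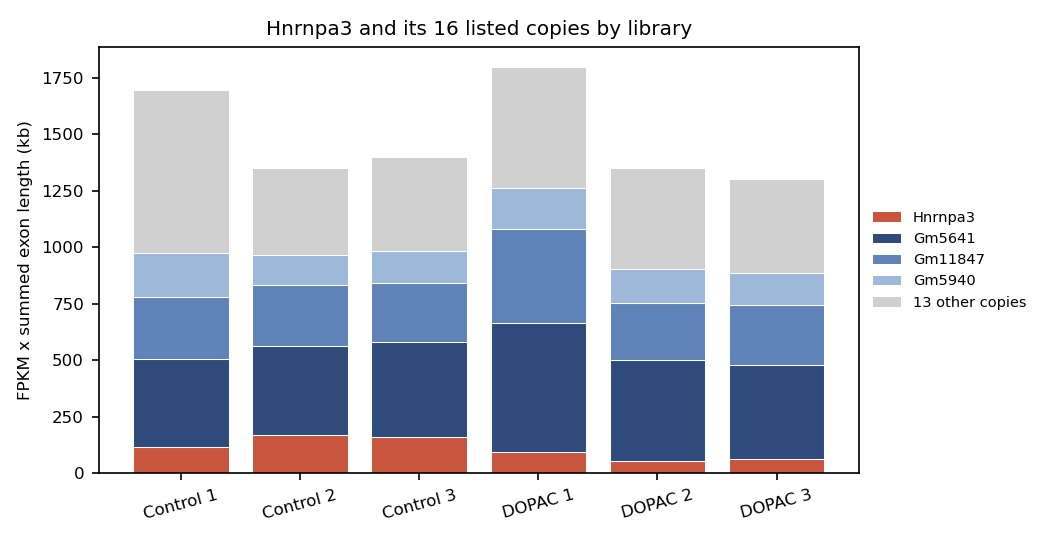
FPKM times summed exon length (kb) in each library, stacked for Hnrnpa3 (red), its 3 copies with the highest values (blues) and 13 other listed copies (grey). The red part is smaller in the 3 DOPAC libraries, and the total heights of the groups overlap.

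Most copies and 2 of the 3 intronless members shared a pattern over the libraries. Control replicate 1 and DOPAC replicate 1 were the highest pair of libraries for 14 of the 16 copies (87.5%) and for 2 of the 3 members with 1 exon, Hnrnpa0 and Sf3b5. They were the highest pair for 5.41% of the 37 members with more exons and for 12.2% of all genes tested. Genes outside these sets showed it too, such as Snrpf, at 163 and 61.7 FPKM in that pair and 14.5 to 20.6 FPKM in the others. The copies were short, with 858 to 1604 bp of summed exons, and the part of length in the pattern was not tested. The third member with 1 exon, Srsf3-ps, was highest in control replicate 1 (6.36 FPKM) and was between 1.66 and 2.32 FPKM in the other 5 libraries. On the same scale Hnrnpa1 made up 93.8% of the total with its 4 listed copies in controls and 94.2% with DOPAC. Hnrnpf made up 78.9% and 81.2% of the total with its 6 listed copies. Srsf3-ps made up 0.84% and 0.45% of the total with its 2 listed copies, of which Srsf3 is counted as 1.

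Some markers of other cell types were also lower with DOPAC, and others were not. All 7 CD8 T cell markers were listed, with a summed level of 956 to 972 FPKM in controls and 889 to 963 FPKM with DOPAC, while Cd4 and the NK markers Ncr1 and Klrb1c were not among the listed genes. Of 5 myeloid markers, Lyz2 and Cd68 were listed, with a sum of 14.2 to 33.8 FPKM in controls and 4.45 to 12.4 FPKM with DOPAC, and Csf1r, Adgre1 and Itgam were not among the listed genes. Lyz2 was at 11.2, 30.2 and 22.9 FPKM in controls and 10.4, 2.57 and 3.01 with DOPAC, with DOPAC replicate 1 the highest of its group, as for Hnrnpa3. The 3 fibroblast collagens summed to 25.7 to 27.9 FPKM in controls and 0.33 to 16 FPKM with DOPAC. The lowest sum was DOPAC replicate 1, where Col1a1 was at 0.16 FPKM, against 9.12 and 9.16 FPKM in DOPAC replicates 2 and 3. For Hnrnpa3, DOPAC replicate 1 was the highest of its group. Of 3 erythroid markers 2 were listed, at 2.72 to 10.4 and 0.28 to 3.02 FPKM. Ighm, the immunoglobulin heavy chain gene of B cells, overlapped between groups, at 143, 154 and 149.95 FPKM in controls and 154, 142 and 126 with DOPAC. The part of these cells in the Hnrnpa3 difference was not tested. In bulk RNA, fewer cells of a type and less RNA per cell cannot be told apart.

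Among the other members of the A/B and D groups, Hnrnpab encodes an RNA-binding protein that associates with the editing enzyme APOBEC1. It was at 413, 406 and 433 FPKM in controls and 606, 391 and 398 with DOPAC. DOPAC replicate 1 alone stood above the controls, and the log2 fold change was 0.12 with all libraries and -0.08 without DOPAC replicate 1. Hnrnpd, also known as AUF1, binds AU-rich elements and speeds the decay of many cytokine mRNAs. It was at 44.8, 46.5 and 43.9 FPKM in controls and 35.8, 40.6 and 38.4 with DOPAC. All 3 DOPAC libraries were below all controls, with a log2 fold change of -0.23 (95% interval -0.51 to 0.04, adjusted p = 0.801, limma), and -0.24 without control replicate 1. Its paralog Hnrnpdl was at 66.4, 55.3 and 62.0 FPKM in controls and 58.7, 53.2 and 53.2 with DOPAC, and the groups overlapped.

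Hnrnpf and its relatives bind runs of guanine. Hnrnpf was at 221, 332 and 353 FPKM in controls and 369, 359.6 and 366 with DOPAC, the highest fold change of the hnRNP genes (log2 0.30, 95% interval -0.15 to 0.75). Without control replicate 1 it was 0.09. Hnrnph2 and Hnrnpk, a poly(C)-binding protein, showed the same arrangement, with log2 fold changes of 0.26 and 0.23 that became 0.06 and 0.07. Hnrnph1 went from 0.23 to 0.00 and Hnrnpu, a nuclear scaffold protein, from 0.26 to 0.07. Hnrnpm went from 0.16 to 0.04 and Hnrnpc, which binds runs of uridine, from 0.15 to 0.10. The remaining hnRNP genes (Hnrnph3, Hnrnpl, Hnrnpr, Hnrnpul1 and Hnrnpul2) had overlapping groups and log2 fold changes between -0.08 and 0.13.

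Hnrnpll was low beside most members and overlapped between groups, at 6.92, 9.55 and 9.89 FPKM in controls and 11.3, 9.14 and 9.45 with DOPAC. Its mean of 9.38 FPKM compares with a median of 58.9 over the members and 7.67 over all genes tested. Its log2 fold change was 0.17 (95% interval -0.24 to 0.59), and 0.03 without control replicate 1. Its known splicing target Ptprc was at 42.7, 99.4 and 98.7 FPKM in controls and 92.5, 102 and 101 with DOPAC. Control replicate 1 alone stood apart for Ptprc, whose log2 fold change was 0.39 with it and -0.01 without it. Gene-level FPKM do not separate isoforms, so exon choice in Ptprc cannot be read from these values.

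SR genes differed little between groups. Srsf2, which binds exonic enhancers and is mutated in some myeloid cancers, was the most abundant, at 135, 131.5 and 143 FPKM in controls and 138, 122 and 124 with DOPAC. Its groups overlapped, with a log2 fold change of -0.10 (95% interval -0.37 to 0.18). Its exons overlap those of Mettl23 and Mfsd11, and the libraries do not mark the strand, so reads of these genes cannot be told apart where they overlap. Srsf10, a repressor of splicing when it is dephosphorylated, was at 27.8, 41.6 and 45.3 FPKM in controls and 47.1, 44 and 47.2 with DOPAC. Control replicate 1 stood below the other 5 libraries, and the log2 fold change was 0.29 with it and 0.09 without it. Srsf9 was lower on the mean, at 32.9 ± 4.01 FPKM (SD, n = 3) in controls and 27.8 ± 1.13 FPKM (SD, n = 3) with DOPAC, with groups that overlapped through control replicate 1. Srsf9 had a log2 fold change of -0.23, and -0.32 without control replicate 1 (adjusted p = 0.295, limma). The other genes of SR proteins (Srsf1, Srsf3, Srsf4, Srsf5, Srsf6, Srsf7 and Srsf11) had overlapping groups and log2 fold changes between -0.05 and 0.17. Srsf3-ps, a copy of Srsf3 by its name, had a log2 fold change of -0.49 with all libraries and -0.06 without control replicate 1.

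SR genes stood apart from the other members by annotation. A transcript annotated as a target of nonsense-mediated decay exists for 9 of the 11 SR genes (81.8%), 10 of the 20 hnRNP genes (50%) and 1 of the 9 SF3 genes (11.1%). Among all 9357 protein-coding genes tested, 31.4% have such a transcript. FPKM per gene add these transcripts to the coding ones.

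SF3 subunit genes gave the other member with an unadjusted p under 0.05. Sf3a2 encodes a subunit of SF3A, which joins the U2 particle to the assembling spliceosome. It was at 42.0, 57.7 and 47.5 FPKM in controls and 36.5, 38.3 and 37.2 with DOPAC. All 3 DOPAC libraries were below all controls, and the spread was larger in controls. The log2 fold change was -0.37 (95% interval -0.72 to -0.02), with an unadjusted p of 0.039 and an adjusted p of 0.801 in the limma fit. Sf3a2 exons overlap those of Plekhj1, so their reads cannot be told apart where they overlap. The unadjusted p was above 0.05 when control replicate 2, control replicate 3 or any DOPAC replicate was left out. Without control replicate 1 the log2 fold change was -0.48 (95% interval -0.71 to -0.24). Its unadjusted p was then 0.0026 and its adjusted p 0.295 (limma).

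Sf3b1 encodes the largest subunit of SF3B, which clamps the branch point helix, and is recurrently mutated in myelodysplasia. It was at 32.1, 64.9 and 64.7 FPKM in controls and 67.2, 71.6 and 74.3 with DOPAC, the highest fold change of all members (log2 0.46, 95% interval -0.20 to 1.12). Control replicate 1 stood far below the other 5 libraries, and the log2 fold change without it was 0.13. Sf3b4, an RNA-binding subunit and the most abundant SF3 gene, was at 66.1, 90.4 and 89.2 FPKM in controls and 59.6, 70.6 and 73.8 with DOPAC. Control replicate 1 lay among the DOPAC libraries, and the log2 fold change was -0.26 with it and -0.40 without it (adjusted p = 0.295, limma). Sf3a1 and Sf3b2 had log2 fold changes of -0.11 and -0.04 with all libraries and -0.34 and -0.21 without control replicate 1. The remaining subunits, Sf3a3, Sf3b3, Sf3b5 and Sf3b6, had overlapping groups and log2 fold changes between -0.11 and 0.15.

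**Figure D4:**
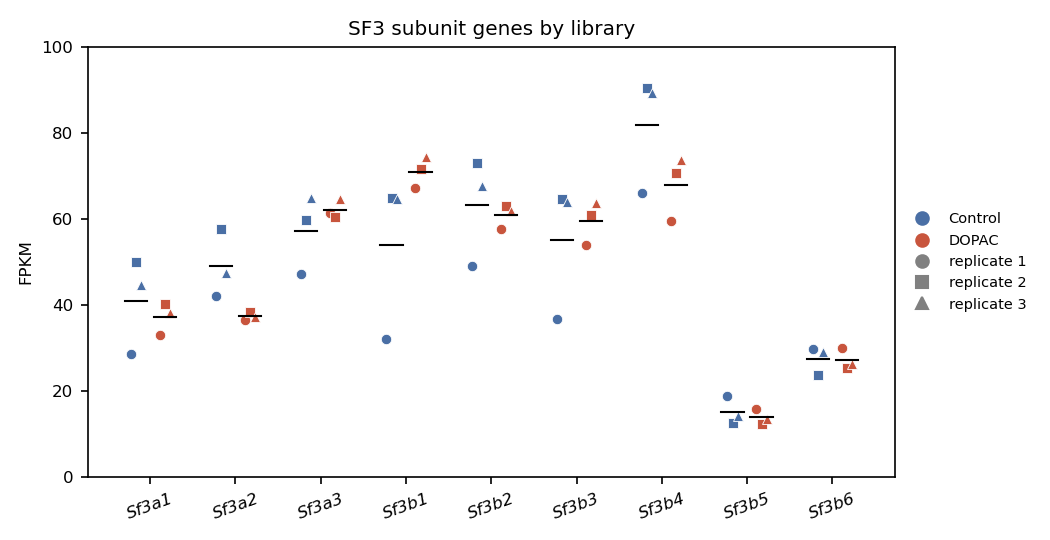
FPKM of the 9 SF3 genes by library, where blue is control, red is DOPAC, the shape gives the replicate number and the bar is the group mean. Sf3a2 is lower in every DOPAC library, and control replicate 1 lies lowest for Sf3a1, Sf3a3, Sf3b1, Sf3b2 and Sf3b3.

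The position of control replicate 1 followed gene length. Over the 40 members, its log2(FPKM + 1) minus the mean of the other 5 libraries had a Spearman rho of -0.54 with summed exon length. Over 10802 genes with a length the rho was -0.61, so the members follow the pattern of the whole table. The points share the same library, and rho is a description across genes. Sf3b1, with 11370 bp of exons, was 1.07 lower in that library, and Hnrnpa0, with 2678 bp, was 0.72 higher. Most short members were not higher. Of the 16 members with up to 4000 bp, 10 were below the mean of the other 5 libraries (median -0.06). Of the 24 longer members, 20 were below it (median -0.41). Hnrnpa3, with 5396 bp, was 0.25 higher than that mean, which includes the DOPAC libraries, and lower than in both other controls.

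**Figure D5:**
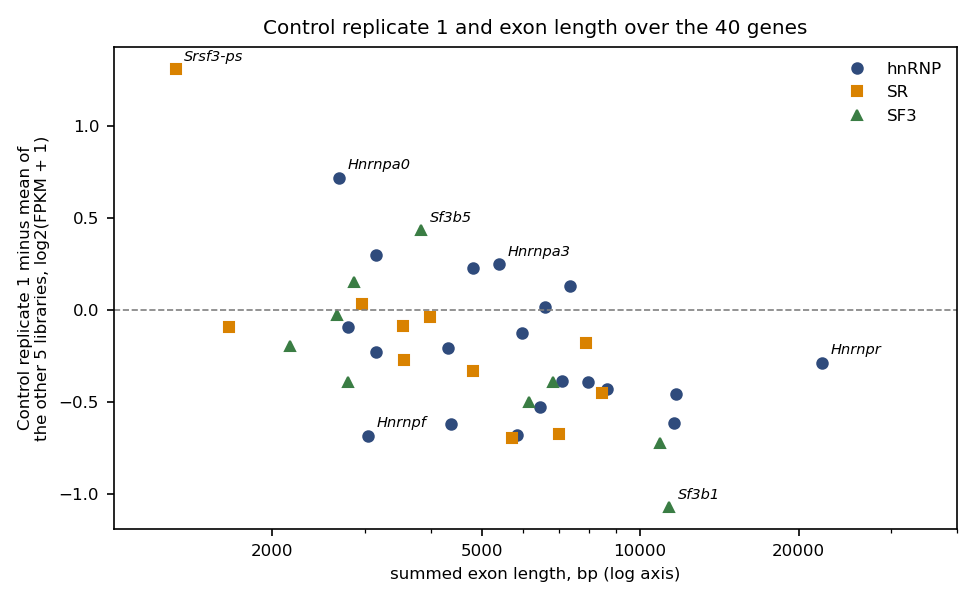
Control replicate 1 minus the mean of the other 5 libraries on log2(FPKM + 1), against summed exon length (bp, log axis), for the 40 genes by family. Most genes longer than 4000 bp, such as Sf3b1, lie below 0. Srsf3-ps, Hnrnpa0 and Sf3b5 lie above it, but 10 of the 16 genes with up to 4000 bp lie below it.

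The rest of the splicing machinery was taken from 9 lists with 155 genes, all of which were tested. At an unadjusted p under 0.05 in the limma fit, 0 of the 155 were higher (background 2.73%) and 0 lower (background 1.46%), and 89 had a positive and 66 a negative log2 fold change. Without control replicate 1, 1 was higher (Cdc40, background 5.57%) and 15 were lower (background 8.89%), and 0 passed the adjusted threshold. All 15 Sm and LSm genes, which form the rings around spliceosomal RNAs, had negative values (median -0.41). Without that library, 10 of the 15 were positive (median 0.04), so the sign of that list followed 1 library. Of the 10 genes for SR kinases and the SR importer, 9 were positive (median 0.19) with all libraries and 4 were positive (median -0.02) without control replicate 1. Of the 35 other hnRNP-type RNA-binding proteins, 27 were positive with all libraries and 14 without it. These signs stand beside 62.1% of all genes positive with all libraries and 47.3% without control replicate 1.

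By the smallest unadjusted p in each list, 2 genes per list were read. Partners of the SF3 complexes included U2af2, the subunit of U2AF that binds the polypyrimidine tract, at 101, 89.1 and 93.7 FPKM in controls and 78.3, 82.9 and 78.5 with DOPAC (log2 -0.24). U2af2 did not overlap between groups. U2surp, a U2-associated SR-related protein, had a log2 fold change of 0.39, with control replicate 1 at 11.4 FPKM and the other 5 libraries between 20.6 and 23.2 FPKM. Without that library it was 0.12. Cdc40, a second-step splicing factor, was at 6.04, 9.50 and 9.77 FPKM in controls and 12, 11 and 11 with DOPAC (log2 0.41, and 0.21 without control replicate 1). Crnkl1, another protein of the activated spliceosome, had a log2 fold change of 0.33, and 0.15 without control replicate 1. Pcbp1, a poly(C)-binding relative of Hnrnpk, was at 216, 237 and 216 FPKM in controls and 207, 155 and 184 with DOPAC (log2 -0.30). Sart1 and Txnl4a of the tri-snRNP had log2 fold changes of -0.24 and -0.17. The other named genes lay between -0.32 and 0.30 with all libraries and between -0.33 and 0.15 without control replicate 1: Lsm6, Snrpb, Snrpb2, Dhx15, Magohb, Upf3b, Tnpo3, Clk1, Tra2a, Acin1 and Pcbp4.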

How the data were processed

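RNA was measured in 3 control and 3 DOPAC libraries made with SMART-Seq HT and Nextera XT kits, per the labels' protocols. The submitters' processing notes name cutadapt 1.9, HISAT2 2.2.1 and mm10. Which expression estimator and annotation were used is not given in the sources used here. The authors deposited FPKM per gene with a log2 fold change, p-value and adjusted p-value, per the file headers, and the test behind them is not named. Low FPKM showed no steps of whole reads (at most 0.5% of low genes shared a ratio), so depth is unknown.

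From FPKM, log2(FPKM + 1) was computed, 288 genes with a mean under 1 FPKM were left out, and limma 3.58.1 in R 4.3.3 (trend, 6.75 total degrees of freedom) was fitted to all 6 libraries with Benjamini-Hochberg adjustment over 10887 genes. A fold change on this scale understates low genes. Positions, exon lengths and transcripts came from GENCODE M21. The coding sequences were aligned with MAFFT 7.526, and figures were drawn with matplotlib 3.10.9. The fit was tested on simulated data where each gene had the same spread in all libraries and no length trend. The deposited data differ from that setting through control replicate 1. Named genes were the A/B relatives, Hnrnpll with Ptprc, members with an unadjusted p under 0.05, the 3 highest and 3 lowest fold changes at a mean of at least 5 FPKM, the most abundant member of each family, Sf3b1, and 2 genes per list. Other genes were named after their values were seen.

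The members and lists were chosen with earlier results of these data known. Deviations from group means of same-numbered libraries correlated at 0.34, 0.16 and 0.28, each above 0.1, so replicate numbers were taken to pair libraries. Crossing replicates 2 and 3 gave 0.24 (control 2, DOPAC 3) and 0.19 (control 3, DOPAC 2), both above the 0.16 of pair 2. Deviations within a group offset each other, so these values are not independent. The rule thus cannot tell replicates 2 and 3 apart, and results with the replicate block rest on this pairing. The library name, and not a misspelt title, placed DOPAC replicate 1 in its group. A marker list is not reported here.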

Additional observations from a re-analysis of the deposited data

How the results depend on the processing

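There were 18 alternatives: pseudocounts, filters, scalings, library weights, a robust variance model, removal of the length trend, the replicate block and leaving out each library. Hnrnpa3 stayed negative in all 18 (log2 fold change -1.45 to -0.89, unadjusted limma p 0.00011 to 0.015, adjusted p 0.132 to 0.994), and so did its 3 ratios to relatives. The 2 members lower at an unadjusted p under 0.05 became 4 with equal medians, 5 with library weights and 4 with the replicate block and the length trend removed, and 1 to 8 on leaving out a library. The highest, 8, came without control replicate 1, where 8.89% of all genes were lower at this threshold, against 1.46% with all libraries. Adding the replicate block to that fit gave 7. The 0 higher members (background 2.73% with all libraries) became 2 with the length trend removed and 1 with the replicate block and the length trend removed. Shares over all genes are not given for the other settings, so these counts cannot be read as particular to the members. Over all genes, 0 passing the adjusted threshold became 2 with library weights and 0 to 2 on leaving out a library. The replicate block alone left 2 lower and 0 higher members and changed no call. Hnrnpab was -0.0087 under library weights, -0.081 without DOPAC replicate 1, 0.23 without DOPAC replicate 2 and -0.088 when control replicate 1 was dropped and the replicate block kept. Hnrnpll was -0.0054 under library weights, -0.010 after removal of the length trend, with or without the replicate block, and -0.059 when control replicate 1 was dropped and the replicate block kept. Hnrnpa2b1 was -0.067 after removal of the length trend, with or without the replicate block. Hnrnpa0 ranged from -0.40 without DOPAC replicate 1 to 0.48 without control replicate 1, with -0.030 without control replicate 2, -0.015 without control replicate 3, and -0.065 when control replicate 1 was dropped and the replicate block kept. The cause of these moves was not tested. An alternative chosen after seeing the data added Hnrnpa3 to its 16 listed copies, but Hnrnpa3 was 9.99% of that control total, so the total could not test the Hnrnpa3 difference. Unknown depth limits every low value.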
